A study of Mus musculus with 5 samples.

Results

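The 6 genes described here are the metallothioneins Mt1, Mt2 and Mt3, the zinc exporter Slc30a1 (ZnT1) and the zinc importers Slc39a8 (ZIP8) and Slc39a14 (ZIP14), of 29818 genes counted in growth plate cells of newborn mice. They were picked by name after Mt1 and Mt2 had been seen to lead some groups of resting and synovial cells, so their levels across cell classes are given below as a description, without a test, and only the comparison of genotypes was tested. Single cells came from the knee growth plates of 5 littermates, given as C57BL/6J in the labels, 2 labelled wild type (WT, pups 1 and 2) and 3 labelled mutant (pups 3, 4 and 5), with 1 BD Rhapsody library per pup. The mutants carried a conditional Trpv4 p.R594H knock-in allele, an activating change in a calcium-permeable channel, replacing 1 Trpv4 allele and switched on by Col2a1-Cre, which acts in cells of the chondrocyte lineage. The Cre strain was made on a B6SJLF1 background before crosses to C57BL/6J, per the study's methods, so that the pups may be of mixed background. For older mice the study counted littermates with Cre alone or with the unrecombined allele among its controls, and which genotype the 2 WT pups had is not given in the sources used here. The joints were dissected free of tendon and ligament per the study's methods, yet clusters with tendon and ligament markers were present. The age is postnatal day 5 in the sample labels and day 3 in the design text of the series. Trpv4 RNA counts do not show a point change, so that the labels could not be checked at the targeted gene.

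After filtering, 82516 cells remained, 13814 to 19133 per pup, with a median of 6000 to 9261 unique molecular identifiers (UMIs, 1 per captured RNA molecule) per cell. The 2 pups labelled WT had the highest medians. Xist had a UMI in 88.4% and 89.8% of cells in mutant pups 4 and 3 and in at most 0.174% in the other pups, so that Xist-expressing pups were present under the mutant label only, and an effect of sex cannot be told apart from genotype unless these 2 pups are left out. Libraries shared 3 to 7 cell barcodes per pair. The cells fell into 50 clusters, and 44 of them were named from marker lists. Every class name below is short for cells that resemble that type by its markers. The 12 classes described had at least 20 cells in every pup. Of the 2217 cells of the hypertrophic class, 1920 were in a cluster led by Smpd3, Panx3 and Ihh, genes of the cells that enter hypertrophy, which scored higher for the proliferating (1.74) than for the hypertrophic markers (1.47), and 297 were in a cluster led by Col10a1. Of the 13021 tendon or ligament cells, 3899 were in a cluster that scored higher for perichondrial (0.856) than for tendon or ligament markers (0.72). Another class also scored higher, by a smaller margin, in 2 resting clusters of 2497 and 36 cells and in 1 erythroid cluster of 392 cells.

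Metallothioneins are small cysteine-rich proteins that bind zinc and copper and buffer free metal and oxidants. Free zinc in the nucleus is sensed by MTF1, a zinc finger factor that binds metal response elements in the promoters of Mt1, Mt2 and Slc30a1, and glucocorticoids and the IL-6 and STAT3 pathway are also known to raise Mt1 and Mt2. ZIP transporters bring zinc into the cytosol and ZnT transporters remove it. In cartilage, zinc import through ZIP8 is known to act through MTF1 on matrix-degrading proteases, and loss of ZIP14 in mice is known to impair skeletal growth.

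Mt1, Mt2 and Mt3 lie beside each other on chromosome 8 of GRCm38, with Mt3 at chr8:94152607-94154146, Mt2 at chr8:94172664-94173568 and Mt1 at chr8:94179082-94180327, all on the plus strand, and 5513 bases separate the end of Mt2 from the start of Mt1. Slc30a1 spans chr1:191906767-191913247 and Slc39a8 chr3:135825279-135888572 on the plus strand, and Slc39a14 spans chr14:70303469-70351425 on the minus strand. The 250 bases before the RefSeq start of Mt1, Mt2 and Slc30a1 (GRCm38.p6, plus strand) are shown because these are the classical MTF1 targets among the 6 genes. Capitals mark every match to the metal response element core, TGCACNC or TGCGCNC on either strand.
Mt1 chr8:94178839-94179088: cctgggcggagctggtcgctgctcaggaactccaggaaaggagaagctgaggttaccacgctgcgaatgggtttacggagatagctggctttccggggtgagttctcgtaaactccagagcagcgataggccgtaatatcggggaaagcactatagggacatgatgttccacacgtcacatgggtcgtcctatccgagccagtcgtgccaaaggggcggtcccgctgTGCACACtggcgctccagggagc
Mt2 chr8:94172368-94172617: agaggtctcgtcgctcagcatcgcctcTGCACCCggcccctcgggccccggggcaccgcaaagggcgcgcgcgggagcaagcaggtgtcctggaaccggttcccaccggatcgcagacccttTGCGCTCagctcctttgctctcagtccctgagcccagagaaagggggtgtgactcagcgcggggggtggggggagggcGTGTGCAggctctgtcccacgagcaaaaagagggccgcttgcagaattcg
Slc30a1 chr1:191906531-191906780: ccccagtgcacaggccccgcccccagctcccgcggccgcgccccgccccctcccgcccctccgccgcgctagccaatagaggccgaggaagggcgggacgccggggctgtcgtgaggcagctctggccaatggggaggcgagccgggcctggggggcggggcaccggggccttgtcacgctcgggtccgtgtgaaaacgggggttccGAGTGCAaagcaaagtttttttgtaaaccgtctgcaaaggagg

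These windows held 1 core in Mt1, 3 in Mt2 and 1 in Slc30a1, while 21.4% of 32851 windows of 250 bases before RefSeq starts held at least 1. The Mt3 window held none, and of the 2 windows of Slc39a8 the one further downstream held 1. In Mt1 and Mt2 the TATA box, the TATAAA that fixes where most transcripts of a gene begin, was not in these windows. It lay downstream of the annotated start, 101 bases before the first coding base in Mt1 and 95 in Mt2, so that the RefSeq models begin upstream of it and most cores fall inside what the annotation calls the 5′ exon. Between the RefSeq start and the first coding base, Mt1 held 4 cores in 222 bases and Mt2 held 4 in 230. As many or more were found in 0.17% of 21781 and 0.179% of 21778 protein-coding transcripts over the same number of bases from their first base. Those bases can include coding sequence, while the stretches of Mt1 and Mt2 begin upstream of the TATA box, so that unlike regions are compared. Of the 32851 windows of 250 bases before RefSeq starts, 0.304% held 4 or more cores. A letter match is a description and says nothing of binding in these cells. These 8 cores are given with 4 bases on each side.
Mt1 chr8:94179087-94179101: gctcTGCACTCcgcc
Mt1 chr8:94179105-94179119: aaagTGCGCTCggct
Mt1 chr8:94179169-94179183: tgctGGGTGCAaacc
Mt1 chr8:94179183-94179197: ccttTGCGCCCggac
Mt2 chr8:94172618-94172632: ggtcGTGCGCAggcc
Mt2 chr8:94172672-94172686: gggcGTGTGCAggcg
Mt2 chr8:94172691-94172705: gggcGCGTGCAtggt
Mt2 chr8:94172725-94172739: ctttTGCGCTCgacc

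Among these 12 classes, the mean levels of Mt1 and Mt2 RNA were highest in pericytes, the contractile cells around small vessels, and among skeletal classes in perichondrial cells, which surround the cartilage. Next among skeletal classes came proliferating chondrocytes for Mt1 and resting chondrocytes, the reserve cells of the growth plate, for Mt2. Levels are UMIs of the gene scaled to the total of the class (CPM). In pericytes Mt1 stood at 1049 and 1212 CPM in the WT pups and 1270, 849.8 and 817.1 CPM in the mutant pups. In every pup that was more than in any pup's macrophages, the next class, with a mean of 504 ± 117 CPM (SD, n = 5 pups). Perichondrial cells had a mean of 375 ± 138 CPM Mt1, resting chondrocytes 253 ± 69.4 and osteoblast lineage cells, the lowest class, 89.2 ± 22.6. Below macrophages every class overlapped its neighbour in the order, so that the order of the classes in between is not resolved by 5 pups.

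Mt2 followed a different order. It stood at 1465, 1393, 1991, 2161 and 1563 CPM in the pericytes of pups 1 to 5 and at 1486, 2001, 1785, 1465 and 1119 CPM in their perichondrial cells, so that these classes overlapped. Resting chondrocytes followed at 808.4, 1029, 941.4, 954.7 and 1333 CPM. Proliferating chondrocytes, which stack into the columns of the growth plate, had 242.8 ± 46.9 CPM (SD, n = 5), below every pup's resting chondrocytes. Perichondrial cells and resting chondrocytes each held 28.8% of all Mt1 and Mt2 UMIs of the kept cells. They made up 19.05% and 27.5% of these cells, in this order. In lymphoid cells Mt1 stood at 50.4 and Mt2 at 148.6 CPM, and how much of these levels was free RNA was not tested.

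**Figure D1:**
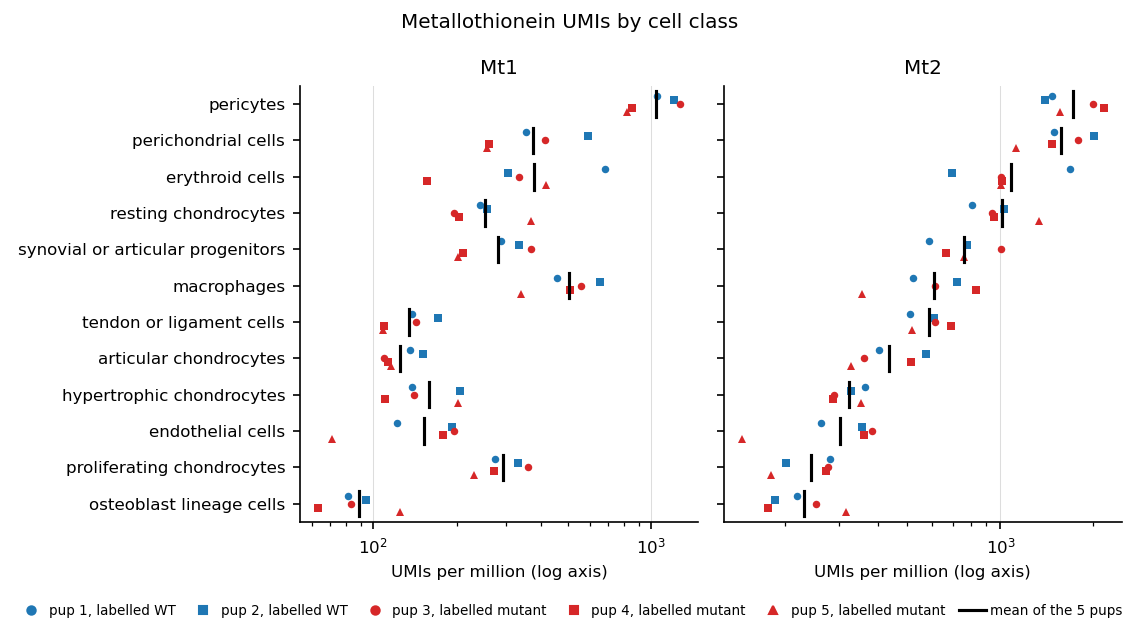
Mt1 (left) and Mt2 (right) levels in CPM in 12 cell classes on log axes, with a point per pup, blue for WT and red for mutant labels, and a black bar for the mean of the 5 pups. Pericytes are highest for both genes, and proliferating chondrocytes rank high for Mt1 (mean 293 CPM) and low for Mt2 (mean 243 CPM).

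The balance between Mt2 and Mt1 therefore differed between classes. It is compared here between classes only, as UMIs of Mt2 per UMI of Mt1 without division by transcript length. In proliferating chondrocytes the ratio was 1.02, 0.613, 0.768, 1 and 0.789 in pups 1 to 5. In resting chondrocytes it was 3.35, 4.02, 4.81, 4.68 and 3.61, so that the lowest resting value was above the highest proliferating value. Tendon or ligament cells (4.53 ± 1.12) and perichondrial cells (4.38 ± 0.793) had the highest means, hypertrophic chondrocytes stood at 2.13 ± 0.479 and macrophages at 1.21 ± 0.243 (SD, n = 5). By class, the ratio was thus high in resting, lowest in proliferating and intermediate in hypertrophic chondrocytes. The 2 hypertrophic clusters were unlike each other. The one led by Col10a1 (297 cells) had 361.9 CPM of Mt2 and 101.2 CPM of Mt1. The one led by Smpd3, Panx3 and Ihh (1920 cells) had 311.1 and 168 CPM, so that the class value describes mainly this cluster. Both genes are close paralogs, and how reads that fit both were assigned is not given in the sources used here.

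**Figure D2:**
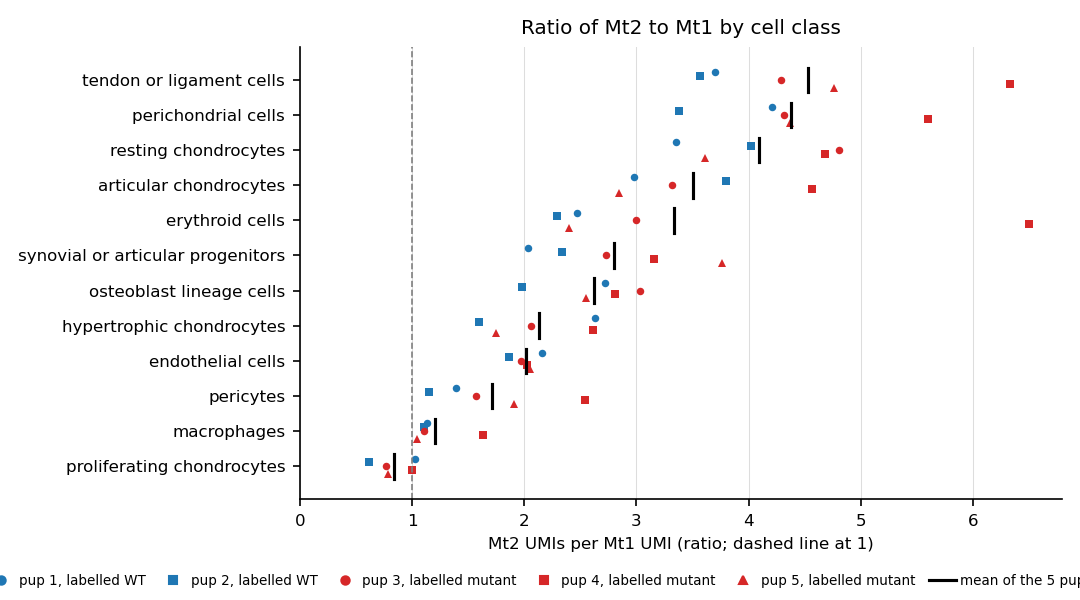
Mt2 UMIs per Mt1 UMI in 12 classes, a point per pup and a black bar for the mean of the 5 pups, with a dashed line at equal counts. Proliferating chondrocytes (mean 0.84) sit at or below the dashed line except for 2 pups just above it, while tendon or ligament, perichondrial and resting cells lie above 3 in every pup.

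Within a class the clusters were far apart. Among the 6 perichondrial clusters, Mt2 ranged from 165.5 CPM in a cluster led by Igfbp3, Col8a1 and Epha3 to 3958 CPM in a cluster led by Prlr, Col6a6 and Cxcl12, a 23.9-fold span, and Mt1 from 40.9 to 1024 CPM, a 25.1-fold span. Among the 9 resting clusters the span was 4.81-fold for Mt2, from 332.9 CPM (led by Tafa5) to 1601 CPM in the largest (6814 cells, led by Chil1, a chitinase-like protein, and Serpina3n). Proliferating chondrocytes held 2 clusters at 139.7 and 215 CPM of Mt2 and 1 small cluster of 197 cells, led by Car6 and Slc7a3, at 2428 CPM. This small cluster held 43, 1, 7, 53 and 93 cells of pups 1 to 5. Its part in the levels and the ratio of the class was not tested. Skeletal muscle cells, with Myog and Pax7, had 3490 CPM of Mt2 and 495.8 CPM of Mt1 over all pups, but pup 1 held only 12 such cells, so that the class is not in the order above. A pair of unnamed clusters was as high, 1 led by Ly6a and Clec3b at 2962 CPM and 1 of 92 cells led by Spp1, Chil1 and Steap4 at 3935 CPM. The 10 leading genes of the cluster of 92 cells were, in order, Spp1, Chil1, Gm5678, Steap4, Tfpi2, P2ry6, Omd, Hao1, Fga and Mt2.

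Over the 50 clusters, Mt1 and Mt2 followed each other (Pearson r = 0.866 of log2 levels), while neither followed Slc30a1 (r = 0.273 with Mt1 and 0.034 with Mt2), Slc39a8 (0.181 and 0.114) or Slc39a14 (−0.018 and 0.095). The points share the 5 libraries. After Mt2, the genes most like Mt1 among 6732 compared were Aco1 (r = 0.715), an aconitase that also acts as an iron sensor, Erlin2, Akap7, Mmut and Sumo3 (0.649). Those most like Mt2 were 5730455P16Rik (0.744), Klhl7, Gcc1, Ccdc6 and Guf1 (0.689), with the skeletal muscle cluster the highest for 4 of these 5.

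The genes behind the clusters left out the 6 genes and the other lists used here. When they were kept in, Mt2 became the leading gene of 2 of 48 clusters, a resting cluster of 2002 cells with 10040 CPM of Mt2 and 1638 CPM of Mt1, and a perichondrial cluster of 1169 cells with 12250 and 2254 CPM. The remaining leading genes of the resting cluster were Chil1, Serpina3n, Kcna2, Rnd1, Steap4, Nptx1, Slc6a14 and Gm45924, with Mt1, and those of the perichondrial cluster Has1, Dpt, Tnfaip2, Igf1, Tnfaip6, Icam1, Ptx3 and Col6a6, with Mt1. Each pup contributed 328 to 552 cells to the resting cluster. To the perichondrial cluster pups 1 to 4 contributed 234 to 344 cells and pup 5 contributed 56. In the clustering without these genes, 41.9% of the resting cluster's cells were in the large cluster led by Chil1 and 13.7% were in a perichondrial cluster. In the resting cluster Slc30a1 was at 3.88 against 6.27 CPM in the other resting clusters, Slc39a8 at 7.32 against 4.19 CPM and Slc39a14 at 163.9 against 164 CPM.

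The metallothionein signal was held by few cells. In resting chondrocytes, 49.7 to 60.6% of cells per pup had no UMI of Mt1 or Mt2, and the 10% of cells with the highest share of these UMIs held 73.2 to 86.6% of them. In tendon or ligament cells the top 10% held 79.5 to 85 percent and in perichondrial cells 62.5 to 77.6%. Pericytes differed, with 3.97 to 15.4% of cells without such a UMI and 30.8 to 36.8% of the UMIs in the top 10% of cells. Over cells, Mt1 and Mt2 followed each other, with r between 0.572 and 0.623 within resting chondrocytes and between 0.679 and 0.757 within perichondrial cells of a pup, points that share the library and the depth of the cell. By variability beyond counting noise, Mt2 ranked 27 to 124 of at least 5306 genes in resting chondrocytes and 8 to 30 of at least 5563 in proliferating chondrocytes, while Slc39a14 ranked in the middle (2879 to 3714 in resting cells).

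To describe the cells rich in metallothionein, the 10% of cells with the highest share of Mt1 and Mt2 UMIs (metallothionein-high) were set beside those without any (metallothionein-free) in the same class and pup. These cells were picked by their Mt1 and Mt2 UMIs, so the values describe them and no test was made. Levels here are CPM of all UMIs other than Mt1 and Mt2, and log2 differences have 5 CPM added to both levels. Median UMIs per cell were 6344 to 10893 in the high and 5698 to 9073 in the free resting cells. Counts of genes cover those whose mean reached 20 CPM in both the high and the free cells, so that no gene entered through 1 side alone, and beside them stands the share of all such genes that differed in the same direction in every pup. This filter was set after the values were seen. Genes named in these comparisons, other than the zinc genes, were chosen after their values were seen.

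In resting chondrocytes, the metallothionein-high cells carried more RNA of the genes listed here for the IL-6 and STAT3 response. The list holds receptors and Stat3 itself besides response genes, and which pathway lay behind the difference was not tested. Of its genes, 8 of 8 were higher in every pup (Il6st, Osmr, Stat3, Socs3, Bcl3, Cebpb, Cebpd and Junb), against 10.5% of 5119 genes, while Il6, Lif and Lcn2 reached 20 CPM in the high cells only. The summed level of the whole list was 1713 to 2574 CPM in the high and 869.9 to 1442 CPM in the free cells, a mean log2 difference of 0.92 (0.83 to 0.97 over pups). Cebpd, an acute-phase transcription factor, stood at 528.9, 588.7, 493.7, 534.9 and 812.7 CPM in the high cells and 138.5, 163.3, 132.9, 169.4 and 261.9 CPM in the free cells of pups 1 to 5. Every high value was above every free value. Il6 itself was at 18.6 to 49.4 against 2.75 to 10.4 CPM, and Lcn2, which binds bacterial siderophores, at 13.3 to 62.5 against 1.88 to 4.17 CPM. Among genes with 20 CPM in both groups, the largest differences were those of Chil1 (log2 2.01), Rnd1 (2.00), Cebpd (1.76), Steap4 (1.68), a metalloreductase, and Icam1 (1.63).

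In perichondrial cells the IL-6 and STAT3 list was also higher in every pup. Its summed level was 1947 to 3844 CPM in high and 1032 to 1381 CPM in free cells, log2 1.16 (0.81 to 1.47), and 7 of 9 genes were higher in every pup, against 18% of 5193 genes. Il6 stood at 56.4, 607.4, 461.7, 115.9 and 161.8 CPM in the high cells and 18.2, 62.1, 39.8, 15.6 and 31.4 CPM in the free cells. Pups 2 and 3, of different genotype labels, had the highest Il6, and they also held 309 and 320 of the 844 cells of a perichondrial cluster with Il6 among its leading genes, against 61 to 83 in the other pups. Among genes with 20 CPM in both groups, Has1, a hyaluronan synthase, led the differences (log2 3.24), followed by Tnfaip2 (2.97), Il6 (2.54), the chemokine Cxcl1 (2.44) and Tnfaip6 (2.24). In tendon or ligament cells 6 of 7 and in articular chondrocytes 7 of 8 genes of the list were higher in every pup, against 23.8% and 10.1% of genes, and in hypertrophic chondrocytes 6 of 9 against 5.62%. In tendon or ligament cells, some leading genes of the unnamed cluster led by Ly6a and Clec3b, with its 2962 CPM of Mt2, were higher in the high cells as well. Its leading genes Ly6c1, Mfap5 and Tnxb were not among the 15 largest differences. Ccl2 was at a mean of 125.5 against 25.2 CPM, and Has1 (83.4 against 7.3 CPM), Dpt (85 against 12.3), Cd34 (73.6 against 14.7), Col5a3 (58.4 against 6.64), Clec3b (56.3 against 9.67) and Ly6a (28 against 2.64) reached 20 CPM in the high cells only. The cell-cycle gene Ube2c was also higher in the high cells of every pup (277.8 against 75.2 CPM), as were 23.8% of genes. It is among the leading genes of the tendon or ligament cluster highest in Mt2 (949.6 CPM), which is led by Anln, Kif20b and Cenpf. The part of these clusters in the results was not tested.

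The summed level of the matrix proteases of the ZIP8 and MTF1 pathway was higher in the metallothionein-high cells of all 5 pups in resting (log2 0.91), articular (0.85), perichondrial (0.75) and tendon or ligament cells (1.02), but not in hypertrophic (−0.04) or proliferating chondrocytes (0.04), where 3 of 5 pups were higher. In resting chondrocytes Adamts1 was the 1 gene of the list with 20 CPM in both groups and was higher in every pup, against 10.5% of genes, and the list summed to 204.1 to 221.7 CPM in the high and 85.9 to 130.1 CPM in the free cells. Mmp3 and the aggrecanase Adamts4 reached 20 CPM in the high cells only, and Adamts4 was at 14.5 to 37.5 against 3.76 to 8.05 CPM. In perichondrial cells 3 of 3 genes, Adamts1, Adamts4 and Adamts5, were higher in every pup, against 18% of genes, while Mmp3 reached 20 CPM in the high and Mmp13 in the free cells only.

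The NRF2 oxidative stress list had 4 of 8 genes higher in every pup in resting chondrocytes (Nfe2l2, Nqo1, Txnrd1 and Srxn1, against 10.5% of genes) and 1 lower (Keap1, against 35.6%), with a log2 of the sum of 0.14. In tendon or ligament cells 4 of 5 genes were higher (Nfe2l2, Gclm, Txnrd1 and Prdx1, against 23.8%) and the sum differed by 0.26, and in perichondrial cells 2 of 6 were higher (against 18%) and the sum differed by 0.25, both sums higher in 5 of 5 pups. In proliferating chondrocytes the sum differed by −0.03 and was higher in 1 of 5 pups. In the glucocorticoid response list, 0 of 9 genes in resting chondrocytes were higher and 3 lower in every pup (Nr3c1, Tsc22d3 and Per1, against 35.6% lower of all genes), with a log2 of the sum of 0.01. In perichondrial cells the sum was higher in 5 of 5 pups, by 0.49 (0.17 to 0.75), with 3 of 8 genes higher (Klf9, Errfi1 and Cdkn1a, against 18%) and 2 lower (Tsc22d3 and Per1, against 15.2%). In hypertrophic chondrocytes it was higher by 0.21 in 5 of 5 pups, with 3 of 9 genes higher (the same Klf9, Errfi1 and Cdkn1a, against 5.62%) and 0 lower, and in tendon or ligament cells 4 of 8 were higher against 23.8% and 2 lower against 11.4%.

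A list of 19 genes that tissue dissociation is known to raise was compared in the same way. It need not hold every such gene. Whether dissociation also raised Mt1, Mt2 or genes of the other lists was not tested. In resting chondrocytes the dissociation and immediate early list summed to a lower level in the high cells of all 5 pups, log2 −0.32 (−0.52 to −0.20), with 10 of 19 genes lower in every pup against 35.6% of all genes and 5 higher (Ier3, Hspa8, Hspb1, Zfp36 and Socs1) against 10.5%. Fos was at 4146, 2765, 1616, 2276 and 2406 CPM in high and 5587, 4176, 2307, 3772 and 4484 CPM in free cells, lower in the high cells of each pup. Of the heat shock genes, Hspb1 and Hspa8 were higher and Hspa1b lower in every pup. In perichondrial cells the list's sum was higher in 3 of 5 pups and lower in 2, with 5 of 19 genes lower in every pup against 15.2% of all genes and 4 higher against 18%. In tendon or ligament cells 8 of 19 were lower against 11.4% and 3 higher against 23.8%. In articular chondrocytes 4 of 17 genes were lower in every pup (8.63% of all genes) and 4 higher (Hspa8, Hspb1, Dnajb1 and Hsp90aa1, against 10.1%). In hypertrophic chondrocytes 2 of 17 were lower (8.06%) and 1 higher (5.62%), and in proliferating chondrocytes 0 of 18 were lower (14.9%) and 1 higher (21.3%).

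The hypoxia and glycolysis list had its largest mean difference in proliferating chondrocytes, and Vegfa and the glucose transporter Slc2a1 were higher in every pup in all 6 classes. In proliferating cells the list summed to 5385 to 6886 CPM in the high and 3335 to 3890 CPM in the free cells, log2 0.73 (0.63 to 0.96), and 7 of 9 genes were higher in every pup, against 21.3% of 5289 genes. Vegfa, the vessel growth factor that HIF raises, was at 224.3, 217.9, 328.2, 267 and 249.6 CPM against 90.9, 125.7, 112, 106.6 and 108 CPM, without overlap. Car9, a hypoxia-induced carbonic anhydrase, was at 54.6 to 91.9 against 5.54 to 15.3 CPM and, like Egln3, reached 20 CPM in the high cells only. Bnip3 and Ndrg1 were among the 7. The IL-6 and STAT3 list differed by a log2 of 0.21 only, and 4 of its 10 genes (Il6st, Bcl3, Cebpb and Cebpd) were higher in every pup, against 21.3%. In resting chondrocytes the hypoxia list had 4 of 10 genes higher in every pup, against 10.5% of genes, and a log2 of 0.20. The log2 was 0.42 in perichondrial cells, with 4 of 8 genes against 18%, and 0.26 in tendon or ligament cells, with 5 of 10 against 23.8%, both sums higher in 5 of 5 pups. It was 0.15 in hypertrophic (4 of 9 genes against 5.62%) and 0.09 in articular chondrocytes (3 of 10 against 10.1%), higher in 4 of 5 pups in each. All these differences are between cells of a class. Over the 50 clusters, the summed hypoxia list had a Pearson r of −0.187 with summed Mt1 and Mt2 (log2 levels). For the IL-6 and STAT3 list r was −0.133, or 0.533 over the 18 chondrocyte clusters, and for the matrix protease list 0.525.

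The comparison was repeated within the largest cluster of the resting, proliferating, perichondrial and tendon or ligament classes, where the cells are more alike, and was not repeated for articular and hypertrophic chondrocytes. The IL-6 and STAT3 list was higher by a log2 of 0.89 in resting chondrocytes, with 7 of 9 genes higher in every pup against 9.21% of all genes, by 0.85 in perichondrial cells (5 of 7 genes against 10.6%) and by 0.83 in tendon or ligament cells (6 of 7 against 10.6%). The hypoxia list was higher by 0.75 in proliferating chondrocytes, with 7 of 9 genes against 18.3%. Some other lists differed less there than over the class. In the perichondrial cluster the hypoxia list's sum differed by 0.07 (−0.30 to 0.27, higher in 4 of 5 pups), with 2 of 8 genes higher in every pup against 10.6%, and the glucocorticoid list's sum by 0.16 (−0.16 to 0.45, 4 of 5 pups). In the tendon or ligament cluster the NRF2 list's sum differed by 0.07, higher in 3 of 5 pups, with 2 of 5 genes against 10.6%, and the hypoxia list's by 0.20, higher in 4 of 5. Of the dissociation genes 8 of 17 were lower (20.7% of all genes) and 3 higher (9.21%) in every pup in the largest resting cluster. In the perichondrial cluster 3 of 19 were lower (12.2%) and 3 higher (10.6%), in the tendon or ligament cluster 3 of 19 were lower (10.8%) and 2 higher (10.6%), and in the proliferating cluster 1 of 18 was lower (12.4%) and 2 higher (18.3%).

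The lists of copper handling genes and of the other zinc genes were compared in the same way. In resting chondrocytes the copper list's sum differed by a log2 of −0.04, with 0 of 3 genes higher and 1 lower in every pup (Slc31a1, the copper importer). The other zinc genes' sum differed by −0.03, with 1 of 8 genes (Slc39a1) higher and 5 lower in every pup, against 10.5% and 35.6% of all genes. The copper list's sum was higher in 5 of 5 pups in proliferating chondrocytes (log2 0.15), and that of the other zinc genes in articular chondrocytes (0.11) and tendon or ligament cells (0.09).

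Summed pericyte markers were lower in the high resting cells of all 5 pups (432.2 to 509 against 480.4 to 608.9 CPM) and higher in the high proliferating cells of all 5 (705.9 to 785.4 against 428.3 to 617 CPM). Summed macrophage markers were at 4.27 to 8.74 against 3.97 to 7.23 CPM in resting cells, higher in 4 of 5 pups. The mean number of simulated doublets among a cell's nearest neighbours was higher in the high cells of all 5 pups in resting (3.23 to 4.56 against 2.62 to 4.05), proliferating (5.75 to 7.3 against 3.45 to 6), articular (3.79 to 5.53 against 2.43 to 3.85) and tendon or ligament cells (5.36 to 6.42 against 3.01 to 3.82). It was higher in 4 of 5 pups in perichondrial (3.58 to 6.06 against 3.08 to 5.19) and hypertrophic cells (5.82 to 10.5 against 5.97 to 8.53). Its part in the results was not tested.

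**Figure D3:**
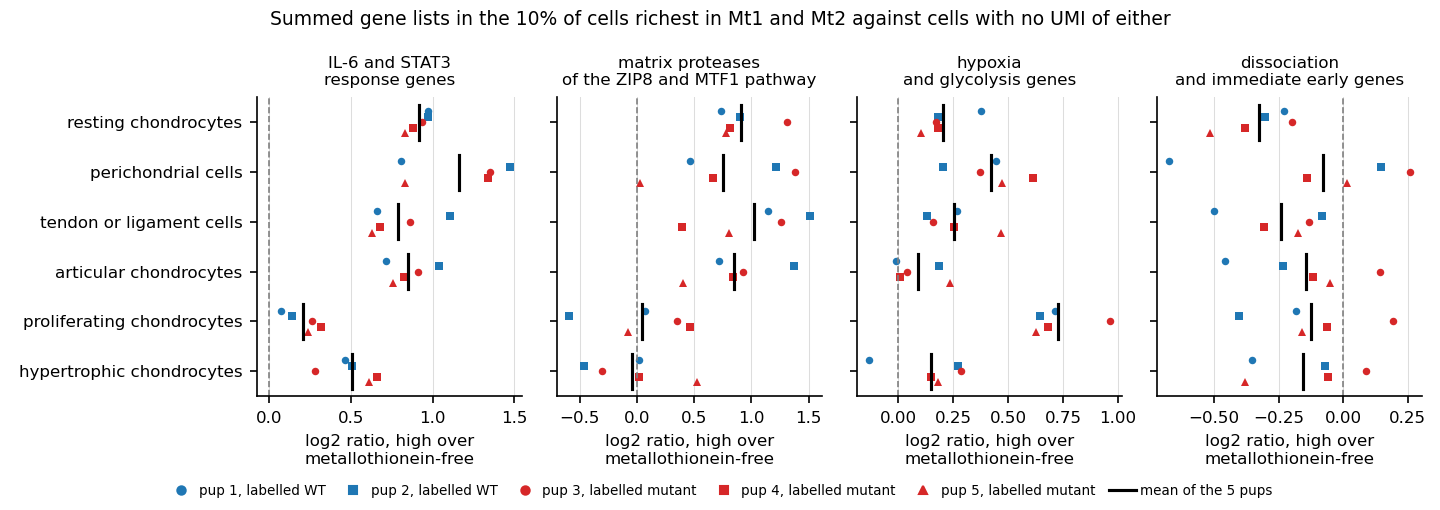
Log2 ratio of the summed level of 4 gene lists in metallothionein-high over metallothionein-free cells of 6 classes, a point per pup, a black bar for the mean and a dashed line at no difference. The IL-6 and STAT3 list lies above 0 in every class and pup, the hypoxia list is farthest to the right in proliferating chondrocytes, and the dissociation list lies at or below 0 in most pups.

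The transporters among the 6 genes differed between classes in how they went with metallothionein. Slc30a1, itself an MTF1 target, was at 3.84 to 5.2 CPM in the high and 4.46 to 6.86 CPM in the free resting cells, lower in each pup, as were 35.6% of the genes compared there. In proliferating cells it was at 9.23 to 15.8 against 5.33 to 7.96 CPM, higher in each pup, as were 21.3% of genes. Slc39a8 in resting cells was at 5.63, 8.74, 6.11, 6.31 and 10.4 CPM against 3.95, 4.52, 3.06, 3.02 and 6.51 CPM, higher in each pup, as were 10.5% of genes, on 145 and 377 UMIs. Slc39a14 in perichondrial cells was at 191.8, 133.4, 122.7, 162.7 and 204.6 CPM against 89.4, 71.9, 69.9, 80 and 113.7 CPM, higher in each pup, as were 18% of genes, and without overlap. Mtf1 was at 6.86 to 12.3 CPM in the high against 11.4 to 14.3 CPM in the free resting cells, lower in each pup, as were 35.6% of genes. Slc30a1, Slc39a8 and Mtf1 were themselves under 20 CPM and so not among the genes behind these shares. None of these levels says how much zinc the cells held.

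Mt3, known as the metallothionein of the brain, was nearly absent, with 334 UMIs in all. Of these, 213 were in 17 macrophage-class cells of 4 pups. The 11 of them with at least 5 Mt3 UMIs all had Ctsk (14830 CPM), Mmp9 (13430 CPM), Acp5, Atp6v0d2 and Ocstamp, 10 had Dcstamp and 7 had Oscar, genes of osteoclasts, the bone-resorbing cells. Taken the other way, 24 cells in the files had a UMI of at least 5 of the 8 osteoclast markers, and 17 of them (70.8%) had Mt3, at a median depth of 20259 UMIs. No Mt3 UMI was seen in the remaining 1156 macrophage-class cells, at a median depth of 7470 UMIs. Of these osteoclast-like cells, pups 1 to 5 held 5, 1, 10, 2 and 6, and 5, 0, 5, 2 and 5 of them had Mt3. Mt3 reached 455.5 CPM in them, Mt1 757 and Mt2 408.4 CPM, and Slc39a8 had no UMI. The limit of 5 markers was set after the values were seen, and cells were pooled over pups. With at least 6 markers 16 of 22 cells and 1 of the remaining 1157 macrophage-class cells had Mt3, and with at least 7 it was 9 of 10 and 8 of 1169. The Mt3 mean of the macrophage class, 23 ± 15.8 CPM (SD, n = 5), was 1.73 CPM with a mitochondrial limit of 20%, when the clusters were drawn anew. It was 11.7 CPM with cells thinned to 3000 UMIs, and 13.7 CPM without the 6% of cells with the most simulated doublets among their neighbours.

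Slc30a1, the exporter in the plasma membrane, was highest in macrophages, at 29.5, 35.6, 39.8, 40.3 and 44.2 CPM in pups 1 to 5. Endothelial cells (22.9 ± 6.97 CPM, SD, n = 5) overlapped with macrophages, and synovial or articular progenitors (14.2 ± 2.91 CPM) with endothelial cells. The other classes lay between 4.9 and 8.75 CPM on average, with the chondrocyte classes between 5.51 and 8.63 CPM. Among the macrophage clusters, 1 led by Mpeg1 and Lyz2 had 56.1 CPM and 1 led by Mrc1 and Lyve1 had 26.4 CPM. Over the 50 clusters the genes most like it were Atox1 (r = 0.791), a copper chaperone, Gdf15 (0.782), Lgmn (0.758), Epn1 (0.756) and Esd (0.753), with the points sharing the 5 libraries.

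Slc39a8 was highest among chondrocyte classes in the hypertrophic class, at 26, 25.2, 32.6, 22.8 and 19.5 CPM. The cluster with the late hypertrophic gene Col10a1 had 55.8 CPM and the earlier cluster with Panx3 and Ihh had 21.8 CPM. The class level was 33.3 to 46 CPM under 3 other clusterings. Erythroid cells had 65.2 CPM in pup 1 and 0 to 19.2 CPM in the others, but the class joins 2 clusters, of which 1 held 213 cells of pup 1 and 3 to 17 of each other pup, so that different cells are compared. Macrophages were at 9.6 to 20.5 CPM. Resting (4.44 ± 1.05 CPM) and proliferating chondrocytes (4.25 ± 0.942 CPM) were lower than hypertrophic cells in every pup.

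Slc39a14 was highest in the chondrocyte classes. It stood at 273.6, 235.2, 239.3, 262.6 and 271.3 CPM in hypertrophic, 220.1, 206.2, 218.5, 232.7 and 238 CPM in proliferating and 187, 166.5, 157, 194.6 and 209 CPM in articular chondrocytes of pups 1 to 5. Neighbours among these overlapped. The hypertrophic cluster led by Col10a1 had 214.7 CPM and the one led by Smpd3, Panx3 and Ihh had 257 CPM. The proliferating clusters ran from 199.2 to 253.7 CPM. Resting chondrocytes (142.1, 125.5, 123.5, 153.4 and 152.8 CPM) lay below every articular value, followed by perichondrial (119 ± 21.9), erythroid (98.6 ± 42.6), osteoblast lineage (90.2 ± 11.4) and tendon or ligament cells (88.2 ± 12.5). Macrophages (46.5 ± 11.3 CPM) lay below tendon or ligament cells in every pup without overlap, but overlapped erythroid cells. In lymphoid cells Slc39a14 was at 32.3 CPM, in pericytes at 36.3 and in synovial progenitors at 38.6 CPM. Col2a1, the cartilage collagen gene, had a UMI in 98.7% of lymphoid cells, and how much of these levels was free RNA was not tested. Lymphoid cells had a Slc39a14 UMI in 16.7% of cells at a median depth of 6045 UMIs, resting chondrocytes in 57% at 7328 UMIs and proliferating chondrocytes in 90.7% at 17012 UMIs. With every cell thinned to 3000 UMIs, the shares became 7.25% for lymphoid cells, 31.5% for resting, 45.1% for proliferating and 51.6% for hypertrophic chondrocytes, the same order. Within the perichondrium a cluster with Grem1, Tnn and Lgr6 stood out at 228.2 CPM, against 42.1 to 110.8 CPM in the other 5 clusters.

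The genes most like Slc39a14 over the 50 clusters were Stt3a (r = 0.928), a subunit of the enzyme that adds N-linked sugars, P4ha1 (0.913) and P4hb (0.885), which form the collagen prolyl hydroxylase, Pde4dip (0.891) and Sox9 (0.885), the chondrocyte master regulator. Those most like Slc39a8 were Bola3 (0.69), Taf10, Gclc, Cmas and Grpel1 (0.605). The erythroid cluster with 213 of its 263 cells from pup 1 was the highest for Slc39a8, Bola3, Taf10, Gclc and Cmas.

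**Figure D4:**
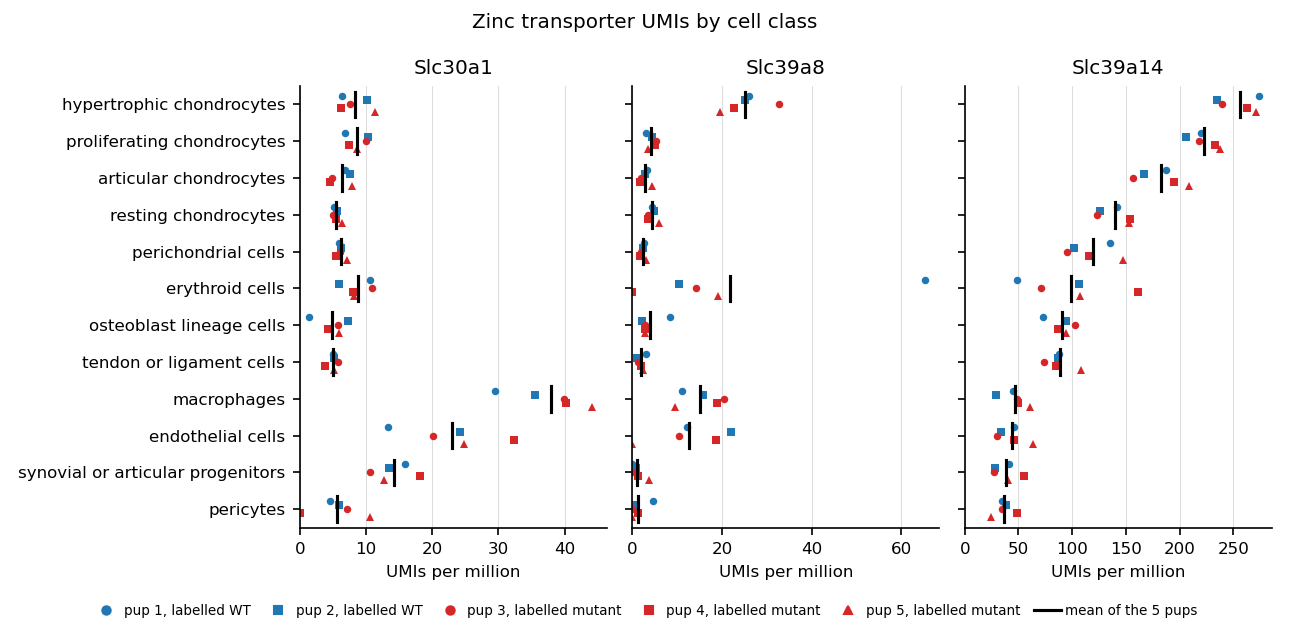
Levels in CPM of Slc30a1, Slc39a8 and Slc39a14 in 12 classes, a point per pup and a black bar for the mean of the 5 pups. Slc39a14 is high in hypertrophic (mean 256 CPM) and proliferating chondrocytes (mean 223 CPM), whose pups overlap. It is lower in resting chondrocytes (mean 140 CPM) and in pericytes (mean 36.3 CPM). Slc30a1 is highest in macrophages, and Slc39a8 in hypertrophic chondrocytes and the erythroid cells of pup 1.

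Other zinc genes were more even. Of 23 further zinc and metallothionein genes in the files, 12 reached 20 CPM in some class. Slc39a1, a broad plasma membrane importer, had 244.2 CPM in synovial or articular progenitors and 83.6 CPM in proliferating chondrocytes, the reverse of Slc39a14, which had 38.6 and 223.1 CPM there. Slc39a11 was highest in hypertrophic (85.3 CPM) and proliferating chondrocytes (74.6 CPM), Slc39a13, whose loss is known to cause a connective tissue disorder, in hypertrophic (60.6 CPM) and tendon or ligament cells (60.1 CPM), and Slc39a10 in endothelial cells (65.6 CPM). Slc39a6 ranged from 22.9 (endothelial) to 99.6 CPM (synovial), Slc39a3 reached 22.4 and Slc39a9 39.2 CPM in synovial progenitors, and of the ZnT transporters Slc30a4 was highest in endothelial cells (56 CPM), Slc30a5 in articular (63.7 CPM) and Slc30a7 (47.1 CPM) and Slc30a9 (46.3 CPM) in hypertrophic chondrocytes. Mtf1 was at 8.68 to 20.6 CPM.

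Genotype was tested on UMIs summed per pup with edgeR's quasi-likelihood test, 2 WT against 3 mutant pups, in all cells and in 7 classes. No member differed at an adjusted p of 0.05. Of 48 pairs of gene and class, 40 passed the filter on low counts and 0 were called, in a background where 0 of 8479 to 21024 genes (0%) were called in any of these 8 comparisons. Between 318 and 1169 genes per comparison had an unadjusted p under 0.05, and DESeq2 called 0 to 48 genes, no member among them. The 8 pairs not tested were Mt3 in the 7 classes and Slc39a8 in synovial progenitors. The log2 fold changes of mutant over WT ran from −0.51 (Mt1, perichondrial cells, SE 0.27) to 0.40 (Mt3, all cells, SE 0.56), with a median SE of 0.19.

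In all cells, TMM-normalized Mt1 was 244.4 and 318.5 CPM in the WT and 257.5, 220.7 and 256.5 CPM in the mutant pups, and Mt2 687.9 and 832.5 against 869.2, 862.7 and 775.3 CPM. The groups overlapped for both genes (log2 −0.20 ± 0.14 and 0.14 ± 0.12, SE). In resting chondrocytes Mt2 was 807.1 and 969.8 CPM in WT and 923.4, 1014 and 1364 CPM in mutant pups, log2 0.31 ± 0.18 (SE) with an adjusted p of 0.771 in edgeR. Mutant pup 5 was the highest and mutant pup 3 lay between the WT pups. In perichondrial cells Mt1 was 350.6 and 553.4 against 409, 279.4 and 262.2 CPM, with an adjusted p of 0.909 in edgeR. The mix of clusters in these classes differed between pups. The perichondrial cluster highest in Mt1 (1024 CPM) held 128, 646, 379, 219 and 50 cells of pups 1 to 5. The resting cluster highest in Mt2 (1601 CPM) held 1023, 887, 1114, 1908 and 1882 cells. The part of this mix in the differences was not tested.

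Of the 40 tested pairs, 39 overlapped between the groups. The exception was Mt1 in articular chondrocytes, the cells of the joint surface, at 138.9 and 143 CPM in WT and 104.1, 118.1 and 119.7 CPM in mutant pups (log2 −0.31 ± 0.10 SE, unadjusted p 0.010, adjusted p 0.604 in edgeR). Groups without overlap and a lower mutant level were found for 13% of the 12951 genes tested in that class, so that 1 such pair is no result about Mt1. Over the comparisons, groups without overlap made up 8.47% (hypertrophic), 10.1% (all cells and perichondrial), 10.5% (synovial), 10.6% (proliferating), 11.1% (tendon or ligament), 11.9% (resting) and 12.2% (articular) of genes with the mutant higher. With the mutant lower they made up 9.83% (hypertrophic), 10.6% (synovial), 11.6% (tendon or ligament), 12.2% (proliferating), 12.4% (all cells), 12.5% (resting) and 12.6% (perichondrial) of genes. No genotype effect on a member differed between articular or perichondrial cells and resting chondrocytes in the interaction test, where the lowest adjusted p was 0.952 in edgeR. That test called 4 of 15718 genes (0.0254%) for articular and 0 of 16772 (0%) for perichondrial cells, with 842 and 547 genes at an unadjusted p under 0.05.

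Slc39a14 in hypertrophic chondrocytes was 275.5 and 228.6 CPM in WT and 238, 268.8 and 275.2 CPM in mutant pups (log2 0.05 ± 0.12, SE), and Slc39a8 26.1 and 24.5 against 32.5, 23.3 and 19.8 CPM (0.02 ± 0.20). Slc30a1 in resting chondrocytes was 5.16 and 5.29 against 4.87, 5.73 and 6.54 CPM (0.13 ± 0.16). None of these passed the test. Over 16 settings and 698 fits no member was called, and the lowest adjusted p was 0.161 in any of them.

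**Figure D5:**
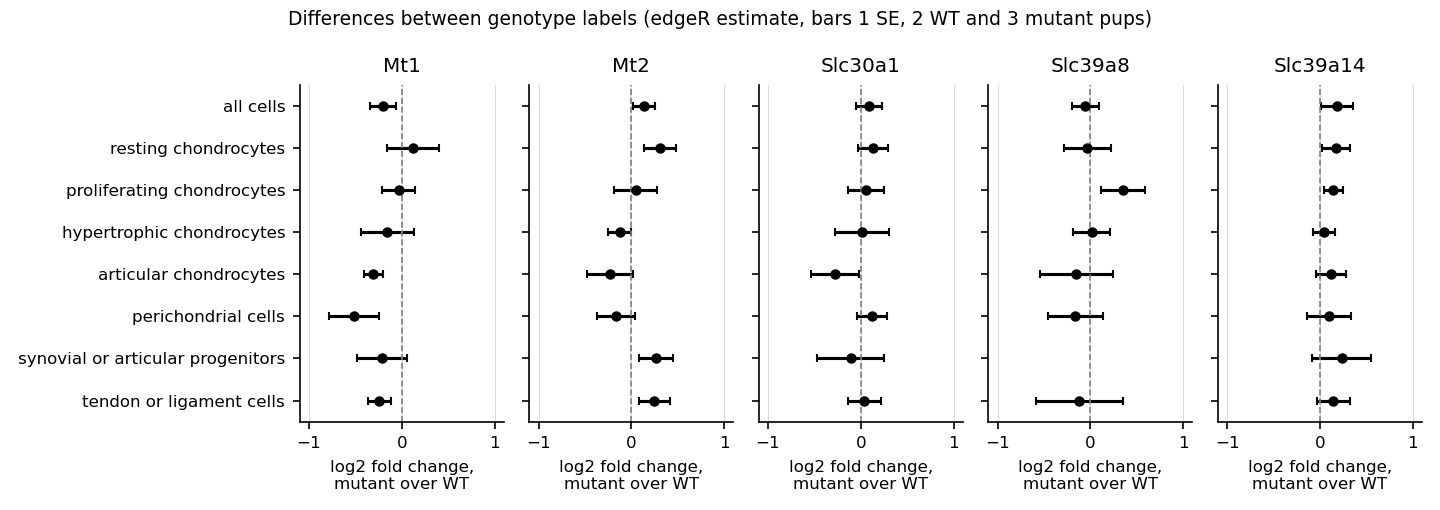
Log2 fold change of mutant over WT pups for 5 genes in all cells and 7 classes, as edgeR estimates with bars of 1 standard error from 2 WT and 3 mutant pups and a dashed line at no difference. All estimates lie between −0.51 and 0.35, none passed the adjusted threshold, and Slc39a8 was not tested in synovial or articular progenitors.

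The ratio of Mt2 to Mt1 was also compared, where 2 against 3 pups allow no exact 2-sided permutation p below 0.1, so that the threshold of 0.05 could not be reached. In all cells it was 2.81 and 2.61 in WT and 3.38, 3.91 and 3.02 in mutant pups, without overlap. The groups also did not overlap in perichondrial cells, synovial or articular progenitors and tendon or ligament cells. The permutation p was 0.2 in each of these (0.4 adjusted over the 8 comparisons). The comparisons share the same pups, all cells include the classes, and how often the ratios of other gene pairs do not overlap was not computed. The difference in log2 ratio was 0.33 in all cells, 0.33 in perichondrial, 0.55 in synovial and 0.48 in tendon or ligament cells. In resting, articular, proliferating and hypertrophic chondrocytes the groups overlapped.

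No gene of the other lists was called by genotype either. Of the 24 other zinc and metallothionein genes 13 to 22 were tested per comparison and 0 were called in either direction, with list medians between −0.06 and 0.07. For the copper handling (8 genes, medians −0.10 to −0.01), glucocorticoid (12, −0.06 to 0.16), NRF2 (12, −0.10 to 0.09), IL-6 and STAT3 (14, 0.04 to 0.22), matrix protease (7, −0.08 to 0.60), dissociation (19, −0.15 to 0.23) and hypoxia lists (13, −0.01 to 0.25) likewise 0 were called in edgeR. The median over all genes tested lay between −0.02 and 0 in these comparisons.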

How the data were processed

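Cells of 5 pups were measured by whole transcriptome single-cell sequencing. The deposited files hold UMI counts per gene and cell, 1 matrix per pup, which the authors made with the BD Rhapsody system on mm10. The aligner and how reads that fit several genes were counted are not given in the sources used here. Cells with 200 to 6000 genes and at most 10% mitochondrial UMIs were kept. The cells of all pups were clustered together (3000 features without the listed genes, Pearson residuals with theta 100, 50 components, 20 neighbours, Leiden resolution 1.5) in Python 3.11.15 with numpy 2.4.6, scipy 1.17.1, scikit-learn 1.9.0, igraph 0.11.9 and leidenalg 0.10.2. Clusters were named from 19 marker lists, with limits set after the clusters were seen, and 6 clusters of 8084 cells stayed unnamed. No doublets were removed in the main analysis.

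UMIs were summed per pup and class and tested in R 4.3.3 with edgeR 4.0.16 (TMM, filterByExpr, robust quasi-likelihood test, Benjamini-Hochberg threshold 0.05), 2 WT against 3 mutant pups, fitted on all genes. DESeq2 1.42.0 was an alternative. The ratio of Mt2 to Mt1 was compared by exact 2-sided permutation. Tested on simulated counts for resting chondrocytes (16342 genes), edgeR found 194 of 200 genes given a log2 difference of 1 at 20 CPM or more, and 10.2% of its calls were false. Of DESeq2's calls 17.4% were false there. On simulated counts for all cells, 11.9% of edgeR's and 32.3% of DESeq2's calls were false.

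The members, the lists and the tests were chosen with earlier results of these data known. By rule the text named the 6 genes in every class, the other zinc genes with at least 20 CPM in some class, the 5 genes most like each member over clusters (Pearson correlation of log2(CPM + 5)) and the 10 leading genes of clusters led by Mt1 or Mt2. Other genes were named after their values were seen. The other lists were copper handling, glucocorticoid, NRF2, IL-6 and STAT3, matrix protease, dissociation and hypoxia genes. Positions are from GENCODE M21 on GRCm38, and sequences from RefSeq on GRCm38.p6, which had no window for Slc39a14.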

Additional observations from a re-analysis of the deposited data

Results flagged for a closer look

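Outside the 6 genes, the genotype effect differed between articular and resting chondrocytes for 4 genes in edgeR's interaction test, and these were named after their values were seen. The log2 effect of mutant over WT was larger in articular than in resting chondrocytes by 1.18 for Matn1 (SE 0.08, adjusted p 6.458e-07), a cartilage matrix protein, by 0.75 for Peli1 (SE 0.08, adjusted p 0.0006849), an E3 ubiquitin ligase, by 1.47 for Krt16 (SE 0.23, adjusted p 0.04046), a keratin, and by 0.70 for Lbh (SE 0.11, adjusted p 0.04046), a transcription cofactor. Leaving out 1 pup at a time gave 1 to 15 such genes. Matn1 is among the markers used to name the resting and proliferating classes. It is also a leading gene of the largest resting cluster, which held 1023, 887, 1114, 1908 and 1882 cells of pups 1 to 5. Krt16 is also among the leading genes of a resting cluster led by Sfrp5, Arc and Tnni2. That cluster held 449 and 366 cells of the WT and 113, 8 and 266 cells of the mutant pups, so that the mix of resting cells differed. The part of this mix in the effects was not tested. None of the 6 genes was among the 4.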

How the results depend on the processing

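No member was called in any of 16 settings, and the lowest adjusted p was 0.161. Of the log2 fold changes recomputed, 553 kept their sign and 83 did not, and the cause was not tested. With DESeq2, the number of genes called was 48 in all cells, 41 in resting chondrocytes, 2 in articular chondrocytes, 9 in proliferating chondrocytes, 4 in hypertrophic chondrocytes, 15 in perichondrial cells and 3 in tendon or ligament cells. Without the filter on low counts, the number of genes called was 16 in resting chondrocytes, 75 in articular chondrocytes, 221 in proliferating chondrocytes, 23 in hypertrophic chondrocytes, 74 in perichondrial cells and 12 in synovial progenitors. With pups 1, 2 and 5 only, which leaves 1 mutant pup whose spread is taken from the WT pups, the number of genes called was 8 in resting chondrocytes, 9 in articular chondrocytes, 1 in proliferating chondrocytes and 46 in synovial progenitors, and the sign of the log2 fold change turned to −0.525 for Mt3 in all cells, 0.434 for Slc39a8 in resting chondrocytes, 0.223 for Slc30a1 and 0.584 for Slc39a8 in articular chondrocytes, −0.395 for Mt2 and −0.038 for Slc39a8 in proliferating chondrocytes, 0.281 for Mt1, 0.068 for Mt2 and −0.352 for Slc39a8 in hypertrophic chondrocytes, 0.318 for Slc39a8 in perichondrial cells and 0.209 for Slc39a8 in tendon or ligament cells. Without the 6% of cells with the most simulated doublets among their neighbours, the number of genes called was 3 in synovial progenitors, and the sign of the log2 fold change turned to 0.175 for Slc30a1 in synovial progenitors, and the level moved to 44.95 CPM for Slc30a1 in macrophages. With cells thinned to 3000 UMIs, the level moved to 46.19 CPM for Slc30a1 and 11.7 CPM for Mt3 in macrophages. At Leiden resolution 0.8, the sign of the log2 fold change turned to 0.056 for Slc39a8 in resting chondrocytes, −0.16 for Mt2 and −0.01 for Slc30a1 in proliferating chondrocytes and −0.02 for Slc30a1 and 0.253 for Slc39a8 in tendon or ligament cells. At Leiden resolution 2.5, the sign of the log2 fold change turned to −0.20 for Mt2 in proliferating chondrocytes, −0.21 for Slc39a8 in hypertrophic chondrocytes and −0.049 for Mt2, −0.052 for Slc30a1 and 0.455 for Slc39a8 in tendon or ligament cells, and the level moved to 46 CPM for Slc39a8 in hypertrophic chondrocytes and 227.9 CPM for Slc39a14 in hypertrophic chondrocytes. With seed 2, the sign of the log2 fold change turned to 0.01 for Slc39a8 in resting chondrocytes, −0.165 for Mt2 in proliferating chondrocytes and −0.014 for Slc39a8 in hypertrophic chondrocytes, and the level moved to 33.25 CPM for Slc39a8 in hypertrophic chondrocytes. With library totals only, the sign of the log2 fold change turned to −0.019 for Slc30a1 in all cells, −0.019 for Slc30a1 and −0.011 for Slc39a8 in hypertrophic chondrocytes, −0.071 for Slc30a1 in tendon or ligament cells and −0.01 for Slc30a1 in perichondrial cells minus resting chondrocytes. With the listed genes kept among the features, the sign of the log2 fold change turned to −0.119 for Mt2 and −0.209 for Slc39a8 in proliferating chondrocytes, −0.009 for Slc39a8 and −0.016 for Slc39a14 in hypertrophic chondrocytes and −0.005 for Mt2 and 0.041 for Slc39a8 in tendon or ligament cells, and the level moved to 35.35 CPM for Slc39a8 in hypertrophic chondrocytes. At a mitochondrial limit of 20%, the sign of the log2 fold change turned to −0.386 for Mt2 in proliferating chondrocytes, −0.108 for Slc30a1 and 0.348 for Slc39a8 in tendon or ligament cells and 0.104 for Slc30a1 in synovial progenitors, and the level moved to 1.727 CPM for Mt3 in macrophages. Library totals moved the median of all genes by −0.10 in all cells and by −0.12 in tendon or ligament cells on the log2 scale.

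Leaving out 1 pup at a time, the number of genes called ranged from 0 to 6 in all cells, 0 to 19 in resting chondrocytes, 0 to 7 in articular chondrocytes, 0 to 24 in proliferating chondrocytes, 0 to 6 in hypertrophic chondrocytes, 0 to 6 in perichondrial cells, 0 to 5 in tendon or ligament cells and 0 to 10 in synovial progenitors, with the highest number without WT pup 2 in proliferating, hypertrophic and synovial cells and without mutant pup 5 elsewhere. The interaction calls ranged from 1 to 15 for articular chondrocytes minus resting chondrocytes and 0 to 2 for perichondrial cells minus resting chondrocytes, the highest without mutant pup 5 and WT pup 2 in this order. The log2 fold changes that turned sign in such fits had these ranges. In all cells it was −0.373 to 0.004 for Mt1, −0.323 to 0.763 for Mt3, −0.046 to 0.244 for Slc30a1 and −0.171 to 0.014 for Slc39a8. In resting chondrocytes it was −0.239 to 0.301 for Mt1 and −0.349 to 0.114 for Slc39a8. In articular chondrocytes it was −0.694 to 0.118 for Slc39a8 and −0.015 to 0.269 for Slc39a14. In proliferating chondrocytes it was −0.218 to 0.106 for Mt1, −0.195 to 0.339 for Mt2 and −0.174 to 0.352 for Slc30a1. In hypertrophic chondrocytes it was −0.418 to 0.142 for Mt1, −0.253 to 0.397 for Slc30a1, −0.226 to 0.158 for Slc39a8 and −0.067 to 0.191 for Slc39a14. In perichondrial cells it was −0.309 to 0.00 for Mt2, −0.412 to 0.001 for Slc39a8 and −0.143 to 0.383 for Slc39a14. In tendon or ligament cells it was −0.035 to 0.148 for Slc30a1, −0.656 to 0.851 for Slc39a8 and −0.012 to 0.305 for Slc39a14. In synovial progenitors it was −0.338 to 0.179 for Slc30a1 and −0.095 to 0.589 for Slc39a14. In articular chondrocytes minus resting chondrocytes it was −0.338 to 0.046 for Slc39a8. In perichondrial cells minus resting chondrocytes it was −0.076 to 0.078 for Slc30a1, −0.238 to 0.066 for Slc39a8 and −0.219 to 0.048 for Slc39a14.

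The clusterings with listed genes kept and the removal of cells with many simulated doublets among their neighbours were added after the data were seen. The filter on genes in metallothionein-high and metallothionein-free cells was also set then, and with 20 CPM in either group in place of both, 152 counts of list genes moved by no more than 1.5 times and 8 by more. The planned Scrublet calls were not run as such, since they were not stable between runs. No paired analysis was possible because the labels give pups their own numbers, so that WT and mutant pups share none. The precision is limited by 5 pups and, for Mt3, by 334 UMIs.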
